A study of Mus musculus with 6 samples.

Results

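The transcripts described here are 10 glucocorticoid-responsive genes, Zbtb16, Pdk4, Fkbp5, Sgk1, Tsc22d3, Cdkn1a, Errfi1, Ddit4, Plin4 and Map3k6, of the 22180 genes that the array annotation names singly. Probe sets were selected on mean level over the 6 arrays, taking the brightest per gene, but each of the 10 genes had a single probe set, so this left nothing to select. The genes themselves were chosen with earlier results of this comparison known, so their shift as a set is a description and not independent evidence. RNA came from the ventral midbrain of male mice 2 months of age, and 3 arrays were labelled Bach1 KO and 3 wild type. The sources used here do not give the strain, the structure of the knockout allele, the time of day of dissection or whether each replicate was its own animal, and p-values therefore reflect only the spread among these samples.

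Glucocorticoids (corticosterone in mice) cross the cell membrane and bind the glucocorticoid receptor, a transcription factor held in the cytosol by HSP90 and immunophilins until ligand arrives. The receptor then enters the nucleus and binds palindromic DNA elements, made of inverted hexamers with the letters AGAACA around a short spacer, as well as DNA of other factors. In brain, glia, vessels and neurons respond, and its targets include feedback inhibitors, metabolic switches and stress-response genes. Several of the 10 genes also answer to other signals, such as p53 (Cdkn1a), fasting and fatty acids (Pdk4) or low oxygen (Ddit4).

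Promoter sequence was compared first, since it does not come from the array values. Whether known receptor elements had a part in the choice of these genes is not recorded, so matches are not independent evidence. RefSeq windows (build GRCm38.p6, used for sequence only, since the array files name no build) held 18 annotated start sites for 9 of the 10 genes, and Zbtb16 was not among them. The 250 bases upstream of each start were searched on both strands for the palindrome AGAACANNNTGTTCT, the looser form GNACANNNTGTNC and the single hexamer AGAACA, where matches of one may lie within another. The palindrome lay in 3 of 32851 windows of the whole table, or 0.00913%, and 1 of these belonged to Sgk1, which has 6 annotated starts. The looser form lay in 0.387% of all windows and in 2 of the 18, that same Sgk1 window and the window of Map3k6, whose match GCACAGGCTGTTC begins 181 bases upstream of the start. The hexamer lay in 16.1% of all windows and in 4 of the 18, of Sgk1 and Tsc22d3. A match is a description of letters and not a site of binding, and windows without a match say nothing about receptor binding elsewhere. The Sgk1 window with the palindrome is shown with those of Plin4 and Pdk4, which hold no match, and capitals mark the palindrome and the hexamer.
Sgk1, chr10:21993640-21993889, plus strand: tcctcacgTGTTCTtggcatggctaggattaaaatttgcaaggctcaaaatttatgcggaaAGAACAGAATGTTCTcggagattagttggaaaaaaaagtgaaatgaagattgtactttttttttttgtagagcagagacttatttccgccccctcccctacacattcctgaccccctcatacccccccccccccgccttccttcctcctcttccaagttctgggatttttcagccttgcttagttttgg
Plin4, chr17:56109783-56110032, minus strand: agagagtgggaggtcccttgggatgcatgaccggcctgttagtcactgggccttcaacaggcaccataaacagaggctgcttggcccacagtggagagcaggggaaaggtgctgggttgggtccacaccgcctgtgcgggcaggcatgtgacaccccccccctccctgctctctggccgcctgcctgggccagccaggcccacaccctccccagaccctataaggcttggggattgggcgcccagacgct
Pdk4, chr6:5496279-5496528, minus strand: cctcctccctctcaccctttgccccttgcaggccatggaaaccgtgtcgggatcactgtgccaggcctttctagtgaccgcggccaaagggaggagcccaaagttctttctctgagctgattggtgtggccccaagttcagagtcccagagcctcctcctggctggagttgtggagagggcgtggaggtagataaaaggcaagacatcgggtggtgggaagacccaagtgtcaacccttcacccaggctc
In the Sgk1 window the palindrome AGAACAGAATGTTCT begins 189 bases upstream of that start, and a separate hexamer begins 242 bases upstream. The other 5 Sgk1 windows held the hexamer in 2 cases and the palindrome in 0. The array has a single probe set for Sgk1, so its signal is not assigned to any one of these starts.

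The values are log2 expression levels from RMA for 41345 probe sets, with array medians of 5.58 to 5.69 and correlations between arrays, across probe sets, of 0.984 to 0.989. Levels of different genes are not set against each other, because probe sets differ in brightness for the same amount of RNA. Of the dopamine neuron markers, Th, which encodes tyrosine hydroxylase, was bright on all arrays, at 11.02 to 11.49. The dopamine transporter gene Slc6a3 was bright too, at 11.69 to 12.17. Some other markers of these neurons ranked lower, down to the 49.5 percentile of mean level over all probe sets. Bach1 itself was at 7.59, 7.68 and 7.70 on the Bach1 KO arrays and at 7.46, 7.59 and 7.57 on the wild-type arrays, so its probe set was not lower where the label says knockout. BACH1 is a heme-binding repressor, and Hmox1, which it represses, was at 8.22 to 8.50 against 6.32 to 6.51 and was higher (log2 difference 1.95; limma, adjusted p = 0.0181). Its difference stayed between 1.88 and 2.03 with any single array left out, but none of those fits nor the one with the replicate number as a block called it, with adjusted p-values of 0.134 to 0.233 and 0.544. Some arrays stood apart in tissue markers, and not the same ones for each tissue. Meningeal fibroblast markers, as the mean deviation from the wild-type mean over 12 genes, were at -0.78 on wild-type replicate 1 and -0.80 on Bach1 KO replicate 2, against -0.31 to 0.41 on the other arrays. Hypothalamus and pituitary markers over 17 genes were at -0.35, -0.38 and -1.0 on Bach1 KO replicates 1, 2 and 3. They were between -0.41 and 0.45 on the wild-type arrays. Thalamus markers over 10 genes were at 0.36 on wild-type replicate 1, against -0.19 to 0.11 on the other arrays. Among 14 dopamine neuron markers 12 had higher means on the Bach1 KO arrays, with a median log2 difference of 0.15 and mean deviations of 0.16, -0.078 and 0.31 against -0.094 to 0.066 on the wild-type arrays. Among 14 endothelial and mural markers 12 had lower means, with a median of -0.15 and mean deviations of -0.046, -0.32 and -0.067 against -0.061 to 0.074. Limma called 0 genes of either list, and the part of these markers in the values of the 10 genes was not tested. In tissue RNA, fewer cells of a type and less RNA per cell cannot be told apart.

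Across the 10 genes, 9 had a higher mean on the Bach1 KO arrays and 1, Ddit4, a lower one, and the median log2 difference (Bach1 KO minus wild type) was 0.23. Over all probe sets, many of them without a named gene, 50.1% had a higher mean and the median was 0.00050. Over the 22180 singly named genes, 10407 had a higher mean and 11773 a lower one, and the median was -0.0098. Zbtb16, Sgk1 and Plin4 had the largest differences, while Fkbp5, Errfi1 and Ddit4 had values near 0. Limma, adjusted with Benjamini-Hochberg over all probe sets, called 0 of the 10 genes at an adjusted p under 0.05, and it called 0.00726% of all probe sets. The adjusted p-values of the 10 ran from 0.54 to 0.996. At an unadjusted p under 0.05 there were 3 of the 10 genes, Zbtb16, Pdk4 and Sgk1, all of them higher, against 4.97% of all probe sets in that direction. This count was 1 without Bach1 KO replicate 1 and 1 without wild-type replicate 2. The same 3 had all Bach1 KO values above all wild-type values, and 7.4% of all probe sets separated in this direction. Since the genes were picked with this contrast known, nothing is read from these shares.

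**Figure D1:**
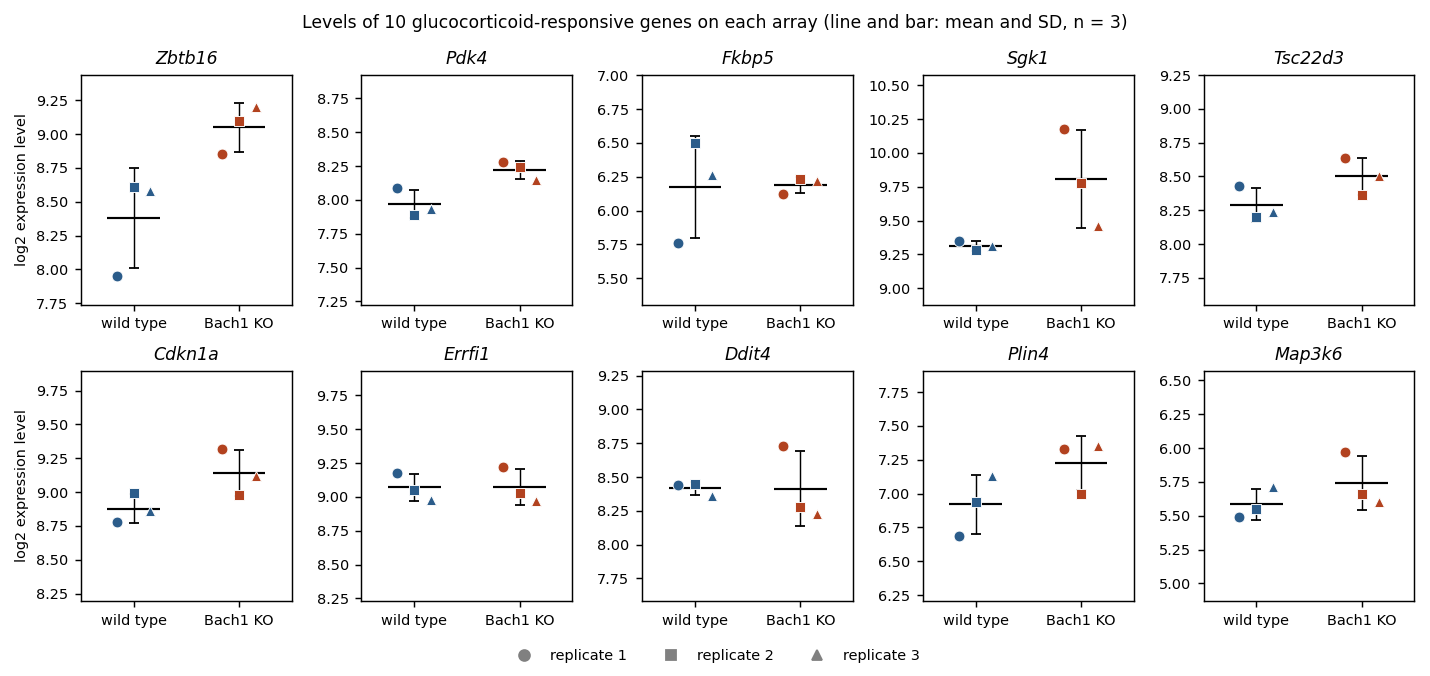
Log2 expression level (vertical axis, the same span of values in each panel) of each of the 10 genes on the 3 wild-type and 3 Bach1 KO arrays, with the symbol giving the replicate number, and lines and bars the mean and SD (n = 3). Zbtb16, Pdk4 and Sgk1 are the panels without overlap between the groups, and Bach1 KO replicate 1 (circle) is the highest point for 7 genes.

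Among transcription regulators, Zbtb16 encodes PLZF, a zinc finger transcription factor strongly induced by glucocorticoids in many cells. Its level was 8.85, 9.10 and 9.20 on Bach1 KO replicates 1, 2 and 3 and 7.95, 8.61 and 8.58 on wild-type replicates 1, 2 and 3. All Bach1 KO arrays lay above all wild-type arrays, and wild-type replicate 1 was far below the other arrays. The means were 9.05 ± 0.18 and 8.38 ± 0.37 (SD, n = 3), a 1.58-fold difference with a 95% interval of 1.12 to 2.23. The log2 difference of 0.66 (SE 0.20) was the largest of the 10 and did not pass (limma, adjusted p = 0.54). Without wild-type replicate 1, an array with low meningeal markers, it was 0.45. Bach1 KO replicate 2, at 9.10, also had low meningeal markers, and the part of that tissue difference in the Zbtb16 values was not tested. The highest and lowest arrays differed by 1.24 in log2 level, a span exceeded by few probe sets, since it ranked at the 92.2 percentile of all spans.

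Tsc22d3 encodes GILZ, a leucine zipper protein that binds and restrains inflammatory transcription factors. It was at 8.64, 8.36 and 8.50 on the Bach1 KO arrays and at 8.43, 8.20 and 8.24 on the wild-type arrays. The groups overlapped because wild-type replicate 1 exceeded Bach1 KO replicate 2. The log2 difference was 0.22 with a 95% interval of -0.057 to 0.49 (limma, adjusted p = 0.658), and it was 0.14 without Bach1 KO replicate 1. Its family relatives Tsc22d1, Tsc22d2 and Tsc22d4, had log2 differences of -0.058, 0.0072 and -0.071.

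Among kinases, Sgk1 encodes the serum and glucocorticoid regulated kinase, which acts on ion channels, transporters and FOXO factors. Its level was 10.18, 9.78 and 9.46 on Bach1 KO replicates 1, 2 and 3 and 9.35, 9.28 and 9.31 on the wild-type arrays. The wild-type arrays were tightly grouped, with an SD of 0.034, and the Bach1 KO arrays were spread, with an SD of 0.36 and replicate 3 only 0.12 above the highest wild-type array. The difference was 1.41-fold (95% interval 1.04 to 1.91) and did not pass (log2 difference 0.49; limma, adjusted p = 0.577). Replicate 1 carried much of this value, and without it the log2 difference was 0.31. The mean deviation of oligodendrocyte markers from the wild-type mean, over 11 genes, was 0.087, -0.18 and 0.050 on the 3 Bach1 KO arrays and 0.086, -0.049 and -0.036 on the wild-type arrays, and their part in the Sgk1 values was not tested. The paralogs Sgk2 and Sgk3 had log2 differences of -0.028 and -0.039, with 95% intervals of -0.25 to 0.20 and -0.24 to 0.16.

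Pdk4 encodes a pyruvate dehydrogenase kinase that shifts cells from glucose toward fatty acid oxidation. It was at 8.28, 8.24 and 8.15 on the Bach1 KO arrays and at 8.09, 7.89 and 7.93 on the wild-type arrays. The groups did not overlap, although the lowest Bach1 KO array was only 0.065 above the highest wild-type array. The log2 difference of 0.25 (SE 0.090, 95% interval 0.034 to 0.47) did not pass (limma, adjusted p = 0.569). With any single array left out its log2 difference ran from 0.21 to 0.31, against 0.31 to 0.67 for Sgk1 and 0.45 to 0.78 for Zbtb16. The other pyruvate dehydrogenase kinases Pdk1, Pdk2 and Pdk3 had log2 differences of -0.13, -0.048 and 0.058.

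Map3k6, a stress-activated kinase of the ASK family, had a probe set of middling brightness, at the 50.8 percentile of mean level over all probe sets. Its values were 5.97, 5.66 and 5.60 on the Bach1 KO arrays and 5.49, 5.55 and 5.71 on the wild-type arrays. Bach1 KO replicate 1 was high and the other arrays were mixed. The log2 difference of 0.16 (95% interval -0.15 to 0.47; limma, adjusted p = 0.76) became 0.046 without that array. Its relatives Map3k5, which encodes ASK1, and Map3k15 had log2 differences of 0.091 and -0.021.

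Among genes of lipid storage and cell cycle control, Plin4 encodes a perilipin that coats lipid droplets. It was at 7.33, 7.00 and 7.35 on the Bach1 KO arrays and at 6.69, 6.94 and 7.13 on the wild-type arrays. The groups overlapped, with Bach1 KO replicate 2 below wild-type replicate 3. The log2 difference was 0.31 with a 95% interval of -0.067 to 0.68 (limma, adjusted p = 0.645), and it was 0.19 without wild-type replicate 1. Among the other perilipins, Plin5 had a log2 difference of 0.39 (95% interval -0.057 to 0.84) and Plin1, Plin2 and Plin3 had 0.063, -0.025 and 0.011.

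Cdkn1a encodes p21, an inhibitor of cyclin-dependent kinases that is also a main p53 target. It was at 9.32, 8.98 and 9.12 on the Bach1 KO arrays and at 8.78, 8.99 and 8.86 on the wild-type arrays. The groups met at Bach1 KO replicate 2 and wild-type replicate 2, which were nearly equal. The log2 difference was 0.27 (95% interval -0.016 to 0.55; limma, adjusted p = 0.614), and 0.18 without Bach1 KO replicate 1. Of 14 other measured p53 targets, the mean was higher for 5 and lower for 9, and 0 were called, with a median of -0.054, against 0.00050 over all probe sets. Btg2, an antiproliferative gene, had the smallest p among them, with a log2 difference of -0.57 (limma, adjusted p = 0.57).

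**Figure D2:**
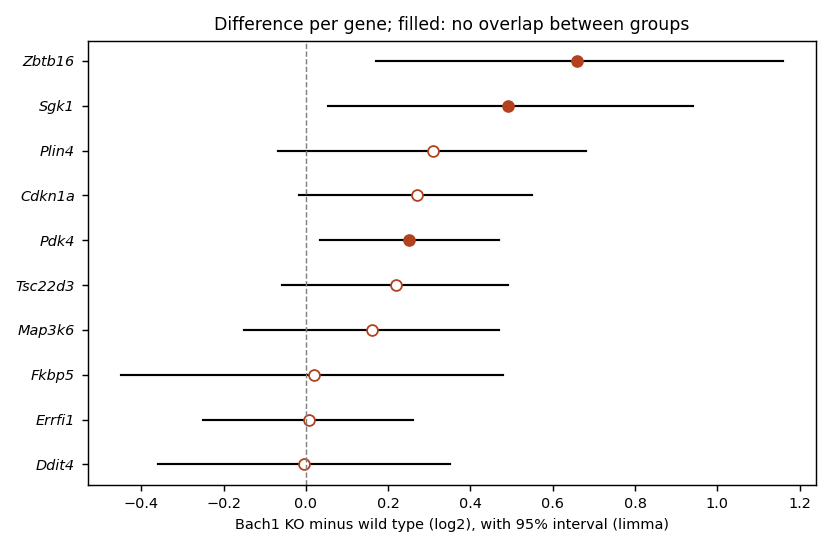
Log2 difference, Bach1 KO minus wild type, of each gene (points) with its 95% interval from limma (lines), ordered by size, where filled points mark genes whose groups did not overlap. The intervals of Zbtb16, Sgk1 and Pdk4 lie above 0, and those of the other 7 genes include 0.

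The genes with differences near 0 were Fkbp5, Errfi1 and Ddit4, grouped here by that value alone. Fkbp5 encodes FKBP51, an immunophilin that lowers the hormone affinity of the receptor and is among the most used markers of the response. It was at 6.12, 6.23 and 6.22 on the Bach1 KO arrays and at 5.76, 6.50 and 6.26 on the wild-type arrays. The Bach1 KO arrays lay inside the range of the wild-type arrays, of which replicate 1 was the lowest and replicate 2 the highest of all. The log2 difference of 0.019 had a wide 95% interval of -0.45 to 0.48 (limma, adjusted p = 0.987), so these arrays could not tell differences within that interval from none. It was -0.19 without wild-type replicate 1, and 0.18 without wild-type replicate 2. Fkbp4, which encodes the opposing immunophilin FKBP52, had a log2 difference of 0.12 (95% interval -0.11 to 0.34). The relatives Fkbp1a and Fkbp8 had log2 differences of -0.085 and -0.12, and the Fkbp8 groups did not overlap.

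Errfi1 encodes MIG6, a feedback inhibitor of the EGF receptor, and Ddit4 encodes REDD1, an inhibitor of mTORC1 signalling. Errfi1 was at 9.22, 9.03 and 8.97 on the Bach1 KO arrays and at 9.18, 9.05 and 8.98 on the wild-type arrays. Ddit4 was at 8.73, 8.28 and 8.23 against 8.44, 8.45 and 8.36. For both genes Bach1 KO replicate 1 was the highest and Bach1 KO replicate 3 the lowest of all arrays, so the Bach1 KO group spanned the wild-type group. Their log2 differences were 0.0066 (95% interval -0.25 to 0.26) and -0.0040 (95% interval -0.36 to 0.35). The signs of Fkbp5, Errfi1 and Ddit4 each changed under some rescaling of the arrays. Of 13 other hypoxia and integrated stress genes, the mean was higher for 4 and lower for 9, and 0 were called, with a median of -0.059. Sesn2 and Vegfa had the smallest p among them, with log2 differences of -0.18 and -0.23 (limma, adjusted p = 0.664 and 0.682). The Sesn2 values did not overlap between the groups, and the Vegfa values did.

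By size, Zbtb16 gave 27.9% and Sgk1 20.7% of the summed log2 difference of the 10 genes. Plin4, Cdkn1a and Pdk4 brought the running total to 83.3%, and Tsc22d3 and Map3k6 brought it to 99.1%. The mean deviation from the wild-type mean over the 10 genes was 0.37, 0.17 and 0.18 on Bach1 KO replicates 1, 2 and 3 and -0.084, 0.047 and 0.038 on the wild-type arrays. Without Zbtb16 these values were 0.36, 0.11 and 0.11 against -0.046, 0.027 and 0.019. The Bach1 KO arrays thus lay above the wild-type arrays with and without the gene of largest difference, which the choice of genes can itself bring about.

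The arrays did not share 1 pattern. Bach1 KO replicate 1 held the highest value of 7 genes, Pdk4, Sgk1, Tsc22d3, Cdkn1a, Errfi1, Ddit4 and Map3k6, whereas it held the highest value for 15.3% of all probe sets. Zbtb16 and Plin4 were highest on Bach1 KO replicate 3, and Fkbp5 on wild-type replicate 2. Wild-type replicate 1 held the lowest value of 5 genes, Zbtb16, Fkbp5, Cdkn1a, Plin4 and Map3k6, against 15.1% of all probe sets, and it had the low meningeal score given above. Bach1 KO replicate 2 had a similar meningeal score, at -0.80, and held the lowest value of 0 of the 10 genes, against 21.3% of all probe sets. Bach1 KO replicate 1 had no such low meningeal score, at -0.060. The part of these markers in the values of the 10 genes was not tested. Leaving out Bach1 KO replicate 1 took the median of the 10 genes from 0.23 to 0.16, and leaving out wild-type replicate 1 took it to 0.21.

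**Figure D3:**
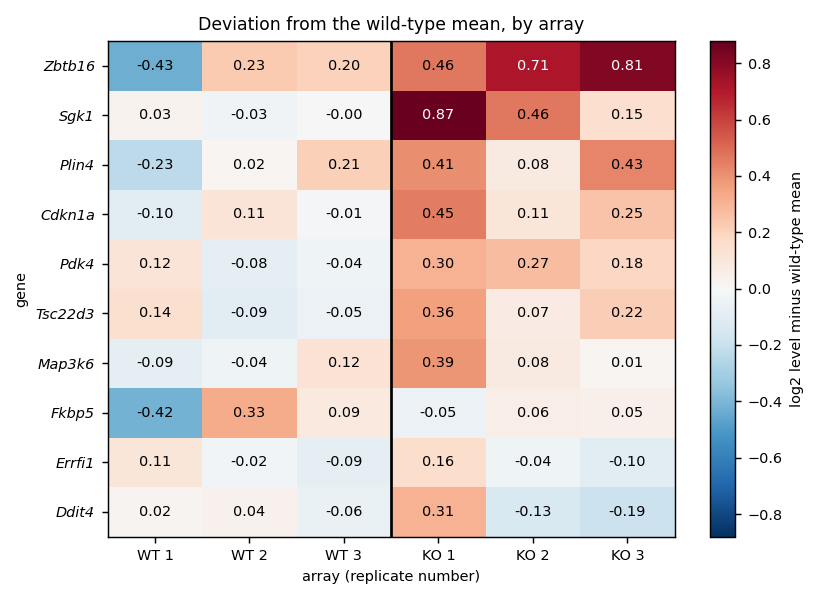
Deviation of each gene's log2 level from its wild-type mean (colour and printed value) on each array (columns), with genes ordered by their difference. The column of Bach1 KO replicate 1 is raised for 9 of the 10 genes, and the rows of Zbtb16 and Fkbp5 are lowest on wild-type replicate 1.

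Genes of the receptor pathway itself showed small differences. Of 19 listed, 16 were measured singly, and the mean was higher for 10 and lower for 6, with a median of 0.011 and a span from -0.08 to 0.12. Limma called 0 of them, and 0 reached an unadjusted p under 0.05, against 8.27% of all probe sets and 6.51% of the singly named genes. With 16 genes, nothing is read from this count. Nr3c1, the glucocorticoid receptor gene, was at 9.0, 9.02 and 9.0 on the Bach1 KO arrays and at 9.15, 9.03 and 9.09 on the wild-type arrays. Its Bach1 KO values lay just below the wild-type values, with a log2 difference of -0.083 (95% interval -0.27 to 0.10; limma, adjusted p = 0.792). Nr3c2, the mineralocorticoid receptor gene, had a log2 difference of 0.11 (95% interval -0.21 to 0.43). Hsd11b1, whose enzyme regenerates active hormone inside cells, had 0.066 (95% interval -0.15 to 0.28), and Hsd11b2, whose enzyme inactivates it, had 0.11 (95% interval -0.13 to 0.35).

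Further glucocorticoid-induced genes, listed from general knowledge but with earlier results of these data known, were also examined. Of 29 measured, the mean was higher for 17 and lower for 12, and their median was 0.010, against 0.23 for the 10 genes and 0.00050 for all probe sets. Limma called 0, and 2 of the 29 reached an unadjusted p under 0.05, in opposite directions. The share in either direction was 8.27% of all probe sets and 6.51% of the singly named genes. Hif3a, a hypoxia-inducible factor subunit, was at 6.99, 6.98 and 6.82 on the Bach1 KO arrays and at 6.47, 6.65 and 6.67 on the wild-type arrays, without overlap (log2 difference 0.33; limma, adjusted p = 0.535). Ccn1, a matrix protein gene that also answers to serum and stretch, was at 7.20, 7.07 and 7.08 against 7.32, 8.01 and 7.80, without overlap in the lower direction (log2 difference -0.59; limma, adjusted p = 0.539). Per1, a clock gene with a receptor element in its promoter, had a log2 difference of -0.026 (95% interval -0.28 to 0.23). The highest value lay on Bach1 KO replicate 1 for 11 of the 29 genes, against 15.3% of all probe sets. The lowest lay on wild-type replicate 1 for 12, against 15.1% of all probe sets. The mean deviation over the 29 genes overlapped between the groups, at 0.075, 0.0060 and -0.044 on the Bach1 KO arrays and -0.045, 0.048 and -0.0036 on the wild-type arrays.

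**Figure D4:**
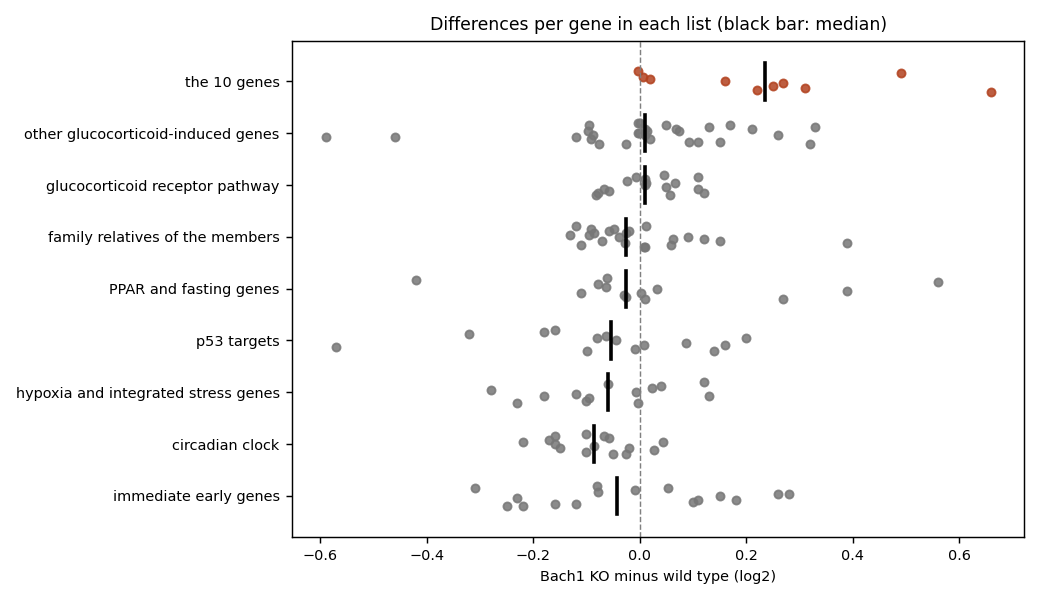
Log2 difference, Bach1 KO minus wild type (horizontal axis), of each measured gene (points) in the 10-gene set and in 8 related lists without those 10 genes, with the median as a black bar. The median of the 10 genes is 0.23, and the medians of the other lists lie between -0.086 and 0.011.

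Other signals that act on some of the 10 genes were listed in the same way. Of 13 PPAR and fasting genes other than Pdk4, the mean was higher for 6 and lower for 7, and 0 were called, with a median of -0.025. At an unadjusted p under 0.05 (limma) there were 3 of these 13, not all in the same direction. The share in either direction was 8.27% of all probe sets and 6.51% of the singly named genes. With 13 genes, nothing is read from this count. Ucp3, a mitochondrial carrier gene, was at -0.42 and Cyp4a14, a fatty acid hydroxylase gene with a dim probe set, at 0.56 on the log2 difference scale (limma, adjusted p = 0.559 and 0.569). Of 15 clock genes the mean was higher for 2 and lower for 13, and 0 were called, with a median of -0.086. Of 16 immediate early genes the mean was higher for 7 and lower for 9, and 0 were called, and their mean deviation of -0.014 on Bach1 KO replicate 1 was between those of the other arrays, -0.25 to 0.20. Of the 22 relatives of the 10 genes by protein family, the mean was higher for 9 and lower for 13, and 0 were called, with a median of -0.027.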

How the data were processed

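Biotin-labelled RNA was hybridised to Affymetrix arrays, as the labels' protocols state. The values the authors deposited are log2 levels from RMA, per the submitters' processing notes; its version and annotation are not given in the sources used here. RMA gives arrays nearly the same distribution, so a change shared by most genes would be removed, and differences of dim probe sets are compressed. The log2 scale was read from the values (0.745 to 14.1).

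Gene names came from the platform annotation, updated through Entrez identifiers to RefSeq (23328 probe sets matched). Of 41345 probe sets, 23521 had 1 gene, 1814 several and 16010 none. Groups followed the genotype labels. All probe sets were fitted in R 4.3.3 with limma 3.58.1, with lmFit and eBayes on all 6 arrays without covariates and Benjamini-Hochberg adjustment over all probe sets. Deviations are log2 levels minus a gene's wild-type mean, averaged over a list. The fit was tested on simulated data for this comparison with 41345 probe sets, where it called 47 of 100 probe sets changed by 1 and 82 of 100 changed by 2 on the log2 scale, with 5 false calls among the unchanged probe sets.

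The members and lists were chosen with earlier results of these data known. All 10 members, fixed control and pathway genes, the family relatives and up to 2 genes of smallest p per list could be named, and Vegfa is among these. Promoter sequences of up to 4 members, by size of difference, were to be shown; the Map3k6 match lies outside this rule and was chosen after it was seen, and the Cdkn1a windows are not printed. The number of arrays limits the precision.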

Additional observations from a re-analysis of the deposited data

How the results depend on the processing

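Settings tried were a filter on dim probe sets (mean below the 40th percentile, 5.07), renewed quantile normalization, median centring, eBayes with trend or robust variances, array weights, the replicate number as a block and leaving out each array. Members called stayed at 0 in all 13, and their median log2 difference kept its sign, from 0.19 to 0.27, and from 0.16 to 0.27 with single arrays left out. Zbtb16, Pdk4, Sgk1, Tsc22d3, Cdkn1a, Plin4 and Map3k6 kept their sign in all 13. Fkbp5 changed sign under median centring (-0.028) and array weights (-0.018) and ran from -0.19 to 0.18 with single arrays left out. Errfi1 changed sign under median centring (-0.040) and ran from -0.068 to 0.061 with arrays left out. Ddit4 changed sign under renewed quantile normalization (0.040) and array weights (0.037) and ran from -0.16 to 0.088 with arrays left out. The causes were not tested. Probe sets called fell from 3, Hmox1 among them, to 0 with any array left out and to 0 with the replicate block. Members at an unadjusted p under 0.05 numbered 3 and ran from 1 to 4 over these settings. Same-numbered arrays of the groups had correlations of deviations of 0.0864, -0.0326 and 0.0395, and different-numbered arrays had -0.0832 to 0.0462. With deviations taken within groups of 3, these values cannot settle whether the numbers pair the arrays. The main fit does not pair them. Each member has 1 probe set, so averaging a gene's probe sets changes nothing and was not run. Groups of 3 are too small for the search for outlying arrays.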

Other observations

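Zbtb16 had the widest span over the arrays of the 10 genes, so the genes nearest to its profile were looked up by the root mean square difference of mean-centred log2 levels over the 6 arrays, among 15789 genes above the 40th percentile of mean level. The nearest were the olfactory receptor gene Olfr1502 (0.13), Gm21388 (0.15) and the homeobox gene Rhox6 (0.15). All 3 were lowest on wild-type replicate 1, as Zbtb16 was, which a search by its profile itself favours. Of the other 9 genes, Plin4 (0.27), Cdkn1a (0.32) and Fkbp5 (0.34) were the nearest to Zbtb16. Each of these was also lowest on wild-type replicate 1, which ranking by this difference likewise favours. The order is a ranking only, with no limit set for what counts as near. Ddit4 (0.48) and Errfi1 (0.46) were the farthest. This is a description over arrays that also differ in meningeal and regional markers, whose part in it was not tested.

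Serotonergic and hindbrain markers, with 9 of 11 means higher and 0 called, also lay above the wild-type arrays on each Bach1 KO array, with mean deviations of 0.14 to 0.28 against -0.096 to 0.066. Only 4 of these 11 genes were above the 40th percentile of mean level, whereas all 10 glucocorticoid-responsive genes were.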
